A study of Rattus norvegicus with 42 samples.

Results

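The Krüppel-like factors (KLFs) examined here were 10 transcription factor genes, Klf2, Klf3, Klf4, Klf6, Klf9, Klf10, Klf11, Klf12, Klf13 and Klf15. They were chosen by gene name in the table of pSer2 Pol2 regions, and their Ensembl identifiers led to 10 of the 22929 rows of the RNA count table. The genes had 23 rows at 13 genomic positions among the 60999 rows of pSer2 Pol2 regions. Of 3981 GR binding regions, 12 were centred within 50 kb of a transcription start site (TSS) of a member. Of these, 4 lay near Klf15, 2 each near Klf9 and Klf13, and 1 each near Klf2, Klf6, Klf10 and Klf12, whereas Klf3, Klf4 and Klf11 had 0.

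The study infused corticosterone (CORT), the main glucocorticoid of the rat, into adrenalectomised male Sprague-Dawley rats and measured the liver. The question was whether the pattern of CORT delivery, in pulses or at a constant rate, changes binding of the glucocorticoid receptor (GR) and transcription. Pulsatile CORT (PULS) ran for 20 min of each hour at 1 ml per hour, and constant CORT (CONS) began at that rate for a short time and then ran on at 0.33 ml per hour. Every group, vehicle (VEH) included, had lost its adrenal glands, had received dexamethasone after surgery and CORT in drinking saline during recovery, and was then infused through a jugular cannula. For ChIP-Seq, PEAK_140 and NADIR_180 were PULS livers at 140 min, at a pulse, and at 180 min, before the next one. CONS_140 and CONS_180 were the same times under CONS, and VEH joined 1 pulsatile vehicle library at 140 min with 1 at 180 min. Each antibody had 2 libraries a group, each of which pooled 6 rats. RNA-Seq had 3 libraries a group at 180 min, for pulsatile and constant CORT and for pulsatile and constant VEH, so the RNA of the PULS group stood at the nadir. Depth was 2051977 to 6715803 tags for GR, 4938473 to 9326927 tags for pSer2 Pol2, which is the RNA polymerase II form that elongates, and 3956379 to 7777219 gene reads for RNA.

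KLFs share a run of zinc fingers near the carboxy terminus that binds GC-rich and CACCC elements in DNA, while their other ends recruit different partners. Some members mainly activate transcription, and others repress it by recruiting Sin3a or CtBP co-repressors. In the liver, KLF15 is known for the control of amino acid breakdown and gluconeogenesis, and Klf9 and Klf15 are known glucocorticoid-responsive genes. Many KLFs can bind the same element.

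The 250 bases before the start of Klf9 and Klf15 are shown because these genes had GR regions around their starts and changed in transcript number. They come from RefSeq on build GRCr8, are given on the strand of the gene, and carry in capitals each match to CACCC, or to GGGTG for the reverse strand, the letters that KLF zinc fingers favour.
Klf9 promoter, chr1:230126396-230126645, plus strand: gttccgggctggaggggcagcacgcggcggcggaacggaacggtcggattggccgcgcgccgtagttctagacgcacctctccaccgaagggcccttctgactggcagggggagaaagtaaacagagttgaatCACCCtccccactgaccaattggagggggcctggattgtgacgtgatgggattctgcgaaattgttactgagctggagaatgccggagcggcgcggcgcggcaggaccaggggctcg
Klf15 promoter, chr4:124522765-124523014, plus strand: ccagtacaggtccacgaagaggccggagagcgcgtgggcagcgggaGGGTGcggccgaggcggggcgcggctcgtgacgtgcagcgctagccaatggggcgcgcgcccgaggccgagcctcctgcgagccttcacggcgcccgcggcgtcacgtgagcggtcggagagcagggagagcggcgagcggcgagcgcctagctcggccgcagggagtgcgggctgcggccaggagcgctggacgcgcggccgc
The Klf9 promoter held 1 CACCC match on its own strand, 117 bases before the start. The Klf15 promoter held 1 on the reverse strand, 204 bases before the start. Neither held AGAACA (reverse TGTTCT), the arm of the element that GR recognises, or the GC box GGGCGG (reverse CCGCCC), although the G and C content was 63.6% for Klf9 and 77.2% for Klf15. CACCC on either strand was found in 49.2% of 33469 RefSeq promoters of this length, GGGCGG in 30.5% and AGAACA in 17.5%. No match overlapped another. Of the 10 members, 7 had a RefSeq promoter, without Klf2, Klf10 and Klf13. The GR and pSer2 Pol2 positions below are on build rn6 and were not placed on these sequences.

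Transcript responses were led by Klf9, Klf15 and Klf13, which were higher with CORT, and by Klf12, which was lower. RNA values are counts scaled to the gene reads of the library (CPM), not corrected for gene length, and are therefore compared between libraries and not between genes. Fold changes came from 1 edgeR quasi-likelihood fit over the 12 libraries, with p-values adjusted by Benjamini-Hochberg over 14092 genes. Log2 changes are given with an approximate standard error (SE). It is the absolute change divided by the square root of the F statistic of its test. A gene was called changed when its adjusted p was below 0.05 and its change exceeded 1.5-fold. With PULS against its VEH, 596 of all genes were called (4.23%), and 3 of the 10 KLFs were. With CONS against its VEH, 1297 of all genes were called (9.2%), and 4 of the 10 KLFs were. In bulk liver, fewer cells of a type and less RNA per cell cannot be told apart.

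**Figure D1:**
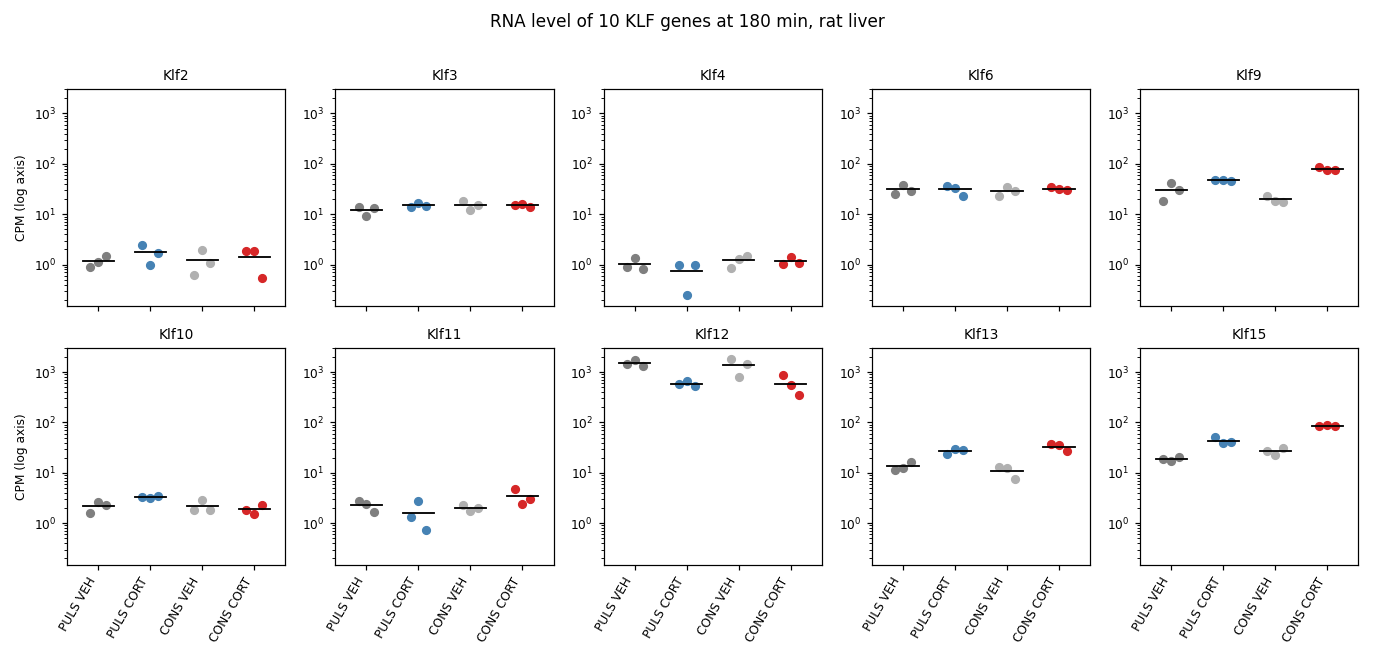
CPM of the 10 KLF genes in the 12 RNA libraries on a log axis, with dots for libraries and a bar for the mean of 3. Klf15 lay at 84.9 to 90.5 CPM under constant CORT and at 22.9 to 30.4 under constant VEH, without overlap, whereas Klf6 stayed between 23.4 and 38.1 in all libraries.

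Klf15, the activator of amino acid breakdown genes, had 50.6, 39.5 and 41.1 CPM in the pulsatile CORT libraries and 18.6, 17.0 and 20.5 in pulsatile VEH. Under the constant pattern it had 85.2, 90.5 and 84.9 CPM with CORT and 27.1, 22.9 and 30.4 with VEH. All CORT libraries lay above all VEH libraries. Klf15 rose by 1.23 ± 0.14 (log2, SE, n = 3; edgeR adjusted p = 9.12e-05) with PULS and by 1.69 ± 0.13 (edgeR adjusted p = 3.09e-07) with CONS.

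Klf9, a repressor of the BTEB subgroup and a direct early target of GR in other tissues, had 87.6, 77.0 and 76.8 CPM with constant CORT and 23.4, 18.3 and 17.4 with constant VEH. It rose by 2.02 ± 0.21 on the log2 scale with CONS (edgeR adjusted p = 7.63e-06), the largest change among the members. With pulsatile CORT it had 47.4, 48.8 and 45.6 CPM, and the 3 pulsatile VEH libraries spread over 18.4, 42.1 and 29.7. The CORT libraries agreed closely here, while the VEH libraries differed by more than 2-fold. The PULS difference of 0.66 ± 0.21 was not called (edgeR adjusted p = 0.075), was called by DESeq2 (adjusted p = 0.0471), and became 0.98 without pulsatile VEH replicate 2 (edgeR adjusted p = 0.00759).

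Klf13, the closest relative of Klf9 and also a partner of Sin3a, had 37.3, 35.3 and 27.2 CPM with constant CORT against 12.8, 12.5 and 7.42 with constant VEH. With the pulsatile pattern it had 23.9, 29.1 and 28.7 CPM with CORT and 11.2, 12.6 and 16.4 with VEH. Neither pattern showed overlap between CORT and VEH. Klf13 rose by 1.60 ± 0.20 (edgeR adjusted p = 3.92e-05) with CONS and by 1.02 ± 0.20 (edgeR adjusted p = 0.0068) with PULS.

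Klf12, a CtBP-dependent repressor first described at an AP-2 gene promoter, had 575, 672 and 529 CPM with pulsatile CORT and 1432, 1768 and 1349 with pulsatile VEH. With the constant pattern it had 876, 544 and 357 CPM with CORT and 1814, 816 and 1429 with VEH. The pulsatile groups did not overlap, and the constant groups did. Klf12 fell by 1.35 ± 0.28 on the log2 scale with PULS (edgeR adjusted p = 0.0103) and by 1.19 ± 0.28 with CONS (edgeR adjusted p = 0.00968). The CONS call was lost without constant CORT replicate 3, when the change was -0.91 (edgeR adjusted p = 0.0518). Klf12 drew 68166 reads over the 12 libraries, against 68 to 2908 for the other members, which ranked it 106 among 22929 rows by mean CPM. The libraries came from a stranded total RNA kit, the strand setting of the count was not given in the sources used here, and the share of reads from overlapping transcripts was not tested.

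The other members were not called in either comparison with VEH. Klf6, an activator induced by liver injury, ranged from 23.4 to 38.1 CPM and differed by 0.01 ± 0.19 with PULS and 0.16 ± 0.18 with CONS. Klf3, a CtBP-dependent repressor, ranged from 9.06 to 18.5 CPM and differed by 0.31 ± 0.20 and -0.05 ± 0.18. Klf10 and Klf11, the TGF-beta inducible members that bind Sin3a, had 149 and 153 reads in all. Klf10 had 3.27, 3.21 and 3.47 CPM with pulsatile CORT and 1.63, 2.64 and 2.28 with pulsatile VEH. These groups did not overlap, and the difference of 0.60 ± 0.32 was not called (edgeR adjusted p = 0.307). Klf11 ranged from 0.743 to 4.87 CPM and differed by 0.70 ± 0.37 with CONS (edgeR adjusted p = 0.266). Klf2 and Klf4, which are known to act in endothelium, had 87 and 68 reads over the 12 libraries, with 3 to 13 and 1 to 10 in a library. Their differences from VEH had SEs of 0.43 to 0.54, so a change near 1.5-fold was not detectable at this depth.

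**Figure D2:**
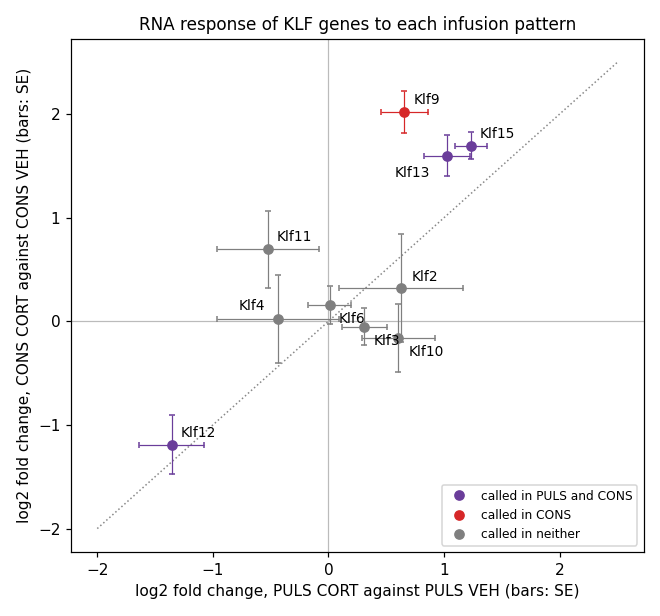
Log2 change of each KLF gene with PULS (x axis) and with CONS (y axis) against the VEH of the same pattern, with SE bars and a dotted line of equal change. Klf9 lies farthest above the line at 0.66 and 2.02, and Klf12 lies near it at -1.35 and -1.19.

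The patterns were compared in the same fit, by the difference of the responses and by the CORT groups directly. The difference of responses called 4 of all genes (0.0284%) and 0 KLFs in edgeR, with 2 KLFs at an unadjusted p under 0.05, whereas DESeq2 called 1. That gene was Klf9, whose response was larger with CONS by 1.36 ± 0.29 (edgeR adjusted p = 0.0721; DESeq2 adjusted p = 0.00254). The edgeR call appeared without constant VEH replicate 1 (1.52, adjusted p = 0.0259) and without pulsatile VEH replicate 1 (1.62, adjusted p = 0.0089). For Klf13 and Klf15 the response differed by 0.58 ± 0.28 and 0.46 ± 0.19 (edgeR adjusted p = 0.414 and 0.315), and for Klf12 by 0.17 ± 0.39.

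Between constant and pulsatile CORT libraries, 125 of all genes (0.887%) and 1 KLF were called. Klf15 was higher with constant CORT by 0.98 ± 0.13 (edgeR adjusted p = 0.00149), with no overlap between 84.9 to 90.5 and 39.5 to 50.6 CPM. Klf9 was higher by 0.76 ± 0.20, also without overlap, and missed the threshold in edgeR (adjusted p = 0.0789) but not in DESeq2 (adjusted p = 0.0259). For Klf12 the difference was -0.0032 ± 0.28. Between the VEH patterns, edgeR called 0 of all genes (0%) and 0 KLFs, with 2 KLFs at an unadjusted p under 0.05, and DESeq2 called 0 KLFs. These were Klf15, lower in pulsatile VEH by 0.52 ± 0.14 without overlap (edgeR adjusted p = 0.347), and Klf9, higher in pulsatile VEH by 0.60 ± 0.21 (edgeR adjusted p = 0.417). The median change over the 10 members was 0.46 with PULS and 0.24 with CONS, beside -0.01 over all genes for either.

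Related genes were summarised from fixed lists. Genes that KLF15 is linked to in amino acid breakdown and gluconeogenesis numbered 13, of which 12 had a row and 11 were tested, G6pc being listed at 0. Of these, 10 of 11 were called higher with PULS (4.23% of all genes were called) and 10 of 11 with CONS (9.2%), with medians of 1.08 and 1.12 on the log2 scale. The gene not called, Hpd, differed by 0.48 ± 0.14 with PULS and -0.09 ± 0.14 with CONS. Sds, which deaminates serine, rose by 3.02 ± 0.41 with PULS and 4.11 ± 0.42 with CONS (edgeR adjusted p = 0.000452 and 8.74e-06). Got1, the cytosolic aspartate aminotransferase, rose by 1.67 ± 0.20 and 3.21 ± 0.21 (edgeR adjusted p = 0.00016 and 8.58e-08). Tdo2, which opens the tryptophan ring, rose by a similar 2.10 ± 0.21 and 2.09 ± 0.21 (edgeR adjusted p = 3.36e-05 and 7.25e-06). For the difference of responses, edgeR called 1 gene of this list and DESeq2 called 2. The edgeR call was Ppargc1a, the co-activator of gluconeogenesis genes, with 1.95 ± 0.29 (adjusted p = 0.0323), and Got1 missed the threshold at 1.54 ± 0.28 (edgeR adjusted p = 0.058). Between the VEH patterns edgeR called 0 of the list, with 4 at an unadjusted p under 0.05, and DESeq2 called 2. The list includes known GR targets, such as Tat and Pck1. Of 16 other Klf and Sp genes, 8 were tested and 0 were called in any of the 5 RNA comparisons by edgeR or DESeq2, with 0 to 1 at an unadjusted p under 0.05 in each.

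The tissue label was checked against marker lists. Hepatocyte markers summed to 134001 to 179297 CPM in every library, and 0 of 8 were called in any comparison by edgeR (2 to 4 at an unadjusted p under 0.05, and up to 2 called by DESeq2). Markers of endothelium (8 tested, 382 to 501 CPM), where Klf2 and Klf4 are known to act, and of Kupffer cells (6 tested, 269 to 484 CPM) also had 0 called by edgeR or DESeq2, with 0 to 1 at an unadjusted p under 0.05. The stellate and fibroblast list moved with CONS, where 3 of 7 were called, with Dcn (1.16) and Rgs5 (1.30) higher and Pdgfrb (-1.29) lower, and its sum was 493 to 543 CPM with constant CORT and 582 to 714 with constant VEH. DESeq2 also called 3 of this list. Between constant and pulsatile CORT, edgeR called 1 of the 7, higher with constant CORT (0.887% of all genes called). There DESeq2 also called 1, and 4 had an unadjusted p under 0.05 in edgeR. Of 3 erythroid markers 1, Slc4a1, was lower with CONS in edgeR (-1.56, adjusted p = 0.0445), and DESeq2 called 0. Cholangiocyte markers (2 tested, 7.75 to 14.6 CPM) and lymphocyte markers (2 tested, 0.415 to 2.20 CPM) had 0 called by edgeR or DESeq2 and 0 at an unadjusted p under 0.05. Their part in the KLF results was not tested.

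Elongating polymerase over the KLF genes was higher at Klf9 and Klf15 at CONS_140 and lower at an upstream Klf12 region at the PULS peak. Values are log2 normalised tags in up to 10 kb from a TSS after input subtraction, drawn towards the mean of a region where tags are few. Tests used limma over all 10 libraries and 38315 rows of regions that vary, with the same call rule. Some rows repeat a position, so shares of all regions are over rows, whereas each KLF position was counted once. Of the 13 KLF positions, 12 had tags, and 1 of the 2 starts annotated for Klf6 was listed at 0 in every library.

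**Figure D3:**
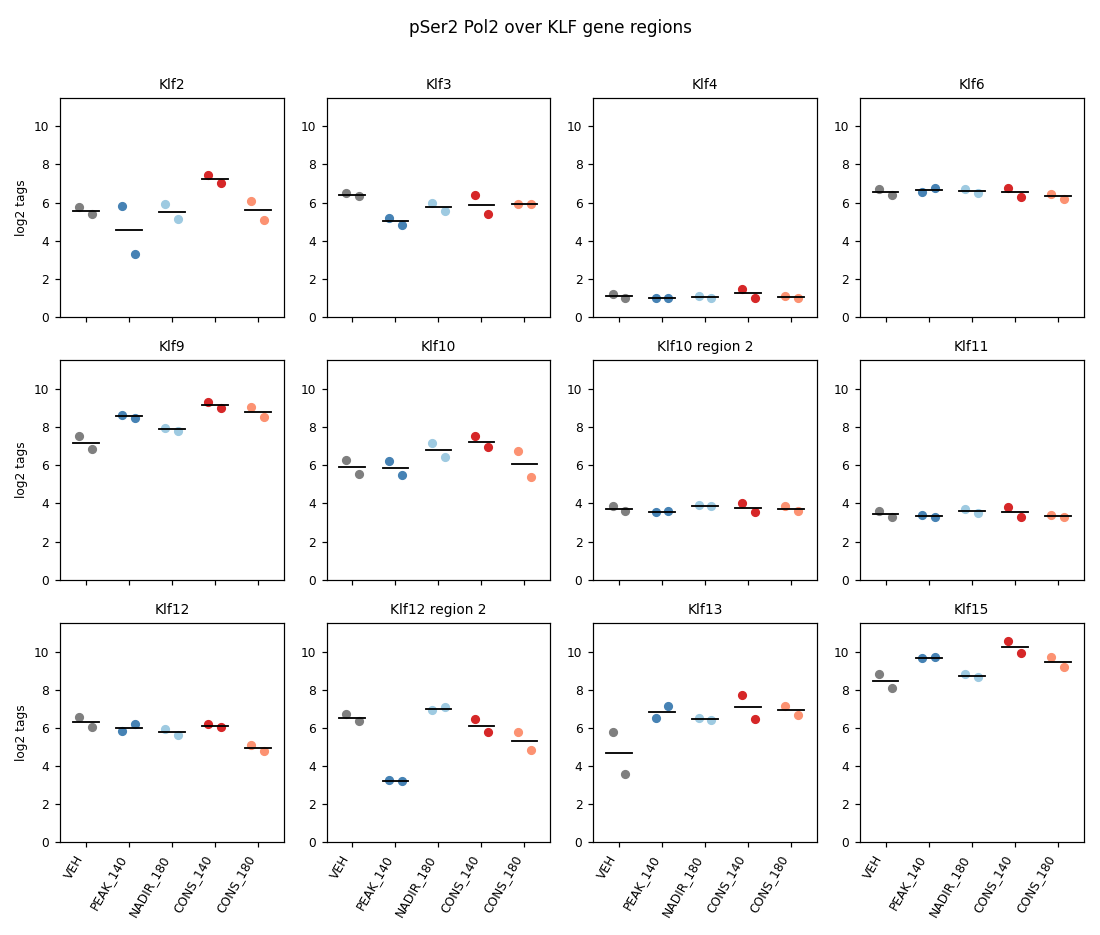
Log2 normalised pSer2 Pol2 tags over the 12 KLF regions, with dots for the 2 libraries of each group. Klf12 region 2 stands at 3.27 and 3.20 at PEAK_140 and between 4.84 and 7.08 elsewhere, and the Klf9 CORT libraries lie above the VEH libraries.

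At Klf9 (chr1:240908483-240918483, plus strand) the values were 7.51 and 6.85 for VEH, 8.65 and 8.50 at PEAK_140, 7.97 and 7.82 at NADIR_180, 9.33 and 9.01 at CONS_140 and 9.07 and 8.54 at CONS_180. Every CORT library lay above both VEH libraries, and the CONS_140 libraries lay above those of either PULS time. CONS_140 was called (1.99 ± 0.34, limma adjusted p = 0.0213), whereas PEAK_140 (1.39 ± 0.34, adjusted p = 0.119), CONS_180 (1.62 ± 0.34, adjusted p = 0.139) and NADIR_180 (0.71 ± 0.34) were not.

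At Klf15 (chr4:122365093-122375093, plus strand) the values were 8.85 and 8.08 for VEH, 9.67 and 9.69 at PEAK_140, 8.82 and 8.66 at NADIR_180, 10.54 and 9.94 at CONS_140 and 9.71 and 9.21 at CONS_180. NADIR_180 lay within the span of VEH, and the other groups lay above it. CONS_140 was called (1.77 ± 0.35, limma adjusted p = 0.0465), whereas PEAK_140 (1.22 ± 0.35, adjusted p = 0.245) and CONS_180 (0.99 ± 0.35, adjusted p = 0.91) were not. The Klf15 call was lost without any single library other than CONS_140 replicate 2 (1.39 to 2.16). The Klf9 call was lost without CONS_140 replicate 1, VEH replicate 2 or any NADIR_180 or CONS_180 library (1.65 to 1.99, limma adjusted p = 0.0535 to 0.186).

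At Klf13 (chr1:124793363-124803363, minus strand) the VEH libraries, at 5.78 and 3.61, differed by more than any CORT pair, which reached 6.50 and 7.15 at PEAK_140, 6.52 and 6.44 at NADIR_180, 7.73 and 6.45 at CONS_140 and 7.14 and 6.70 at CONS_180. All CORT libraries were above VEH, and no difference was called (2.40 ± 0.63 at CONS_140, limma adjusted p = 0.187).

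Klf12 has 2 annotated starts with separate regions. The upstream region 2 (chr15:84738525-84748525, minus strand) had 6.71 and 6.34 for VEH, 3.27 and 3.20 at PEAK_140, 6.92 and 7.08 at NADIR_180, 6.46 and 5.78 at CONS_140 and 5.80 and 4.84 at CONS_180. Both PEAK_140 libraries were below every other library. They were about as low as the values of Klf11 (3.26 to 3.82), a low level for these data. How the treatment of few tags affects their agreement and the size of the fall was not tested. The region fell at PEAK_140 by 3.29 ± 0.39 against VEH (limma adjusted p = 0.00318) and differed by -3.76 ± 0.39 from NADIR_180 (adjusted p = 0.00301) and by -2.88 ± 0.39 from CONS_140 (adjusted p = 0.049). Without PEAK_140 replicate 1 the first of these was -3.32 and missed the threshold (limma adjusted p = 0.0506), as it did without either VEH library (-3.11 and -3.47, adjusted p = 0.0624 and 0.0622). The difference from NADIR_180 was lost without PEAK_140 replicate 1 or NADIR_180 replicate 1 (-3.80 and -3.84, adjusted p = 0.0688 and 0.102), and that from CONS_140 without any single library other than CONS_140 replicate 2 (-2.54 to -2.92). The PEAK_140 to NADIR_180 change differed from the CONS_140 to CONS_180 change by -4.56 ± 0.55 (limma adjusted p = 0.0152), a call kept in 7 of 17 alternatives and likewise lost without any single library other than CONS_140 replicate 2. Region 1, at the downstream start (chr15:84666125-84676125, minus strand), had 6.55 and 6.07 for VEH, 5.85 and 6.19 at PEAK_140, 5.94 and 5.64 at NADIR_180, 6.18 and 6.05 at CONS_140 and 5.11 and 4.81 at CONS_180. It was lowest at CONS_180, which was not called (-1.35 ± 0.33, limma adjusted p = 0.252).

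Klf2 had 5.82 and 3.33 at PEAK_140, 7.44 and 7.03 at CONS_140 and 5.76 and 5.39 for VEH. PEAK_140 was below CONS_140 without overlap, by 2.66 ± 0.67 (limma adjusted p = 0.178), and this difference passed with replicate number as a block (-2.66, adjusted p = 0.0426), when the calls over all regions went from 10 to 747. Klf3 was at 5.22 and 4.82 at PEAK_140 and 6.48 and 6.34 in VEH, below it without a call (-1.39 ± 0.38, limma adjusted p = 0.184). The main Klf10 region was at 7.53 and 6.96 at CONS_140 and 6.28 and 5.55 in VEH (1.33 ± 0.51, adjusted p = 0.536). The Klf6 region varied little, from 6.21 to 6.79. Values were low at Klf11 (3.26 to 3.82), the second Klf10 region (3.54 to 4.00) and Klf4 (1.02 to 1.5). As values with few tags are drawn to the region mean, these narrow spans may not reflect steady occupancy.

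Counted over the 12 KLF regions, limma called 1 at PEAK_140 against VEH, where 0.989% of all regions were called, and 2 at CONS_140, where 0.788% were. It called 1 for PEAK_140 against NADIR_180 (0.48% of all regions), 1 for PEAK_140 against CONS_140 (0.0261%) and 1 for the difference of the time effects (0.0574%). It called 0 KLF regions at NADIR_180 (1 at an unadjusted p under 0.05, 0.00522% of all regions called), at CONS_180 (5 unadjusted, 0.214%), between CONS_180 and NADIR_180 (3 unadjusted, 0.17%) and between CONS_140 and CONS_180 (4 unadjusted, 0%). No other tool was run on these log2 values. The median over all regions was 0.15 at CONS_140 and -0.05 at PEAK_140 against VEH, beside 0.13 and -0.10 over the KLF regions, and -0.26 for PEAK_140 against CONS_140, beside -0.41. Once libraries were centred on their medians, the differences of Klf12 region 2 and the CONS_140 gains of Klf9 and Klf15 kept their calls, and Klf9 (1.48), Klf15 (1.30) and Klf3 (-1.30) were also called at PEAK_140.

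GR binding was higher than in VEH at most of the KLF regions at the PULS peak and at both CONS times, and at 1 of them at the PULS nadir. Values are again log2 normalised, input-subtracted tags, where a value below 0 is under 1 normalised tag, so a fold change over such a VEH value is a fitted number and not a bound. The comparison was by limma over all 10 libraries and 3981 regions. The authors' peak lists, each called on both libraries of a group, held 9 of the 12 regions at PEAK_140, 1 at NADIR_180, 10 at CONS_140, 9 at CONS_180 and 0 in VEH. The merged lists defined the regions, so all 12 entered through a CORT group of these same libraries. A rise over VEH was therefore favoured by the choice of regions, and its p-values are descriptive. With 1 of the 12 listed at NADIR_180, the same holds for levels above NADIR_180 and for the difference of the time effects. Klf13 -3674 and Klf10 -240 were listed at CONS_140 only, and Klf12 -3166 at PEAK_140 only.

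**Figure D4:**
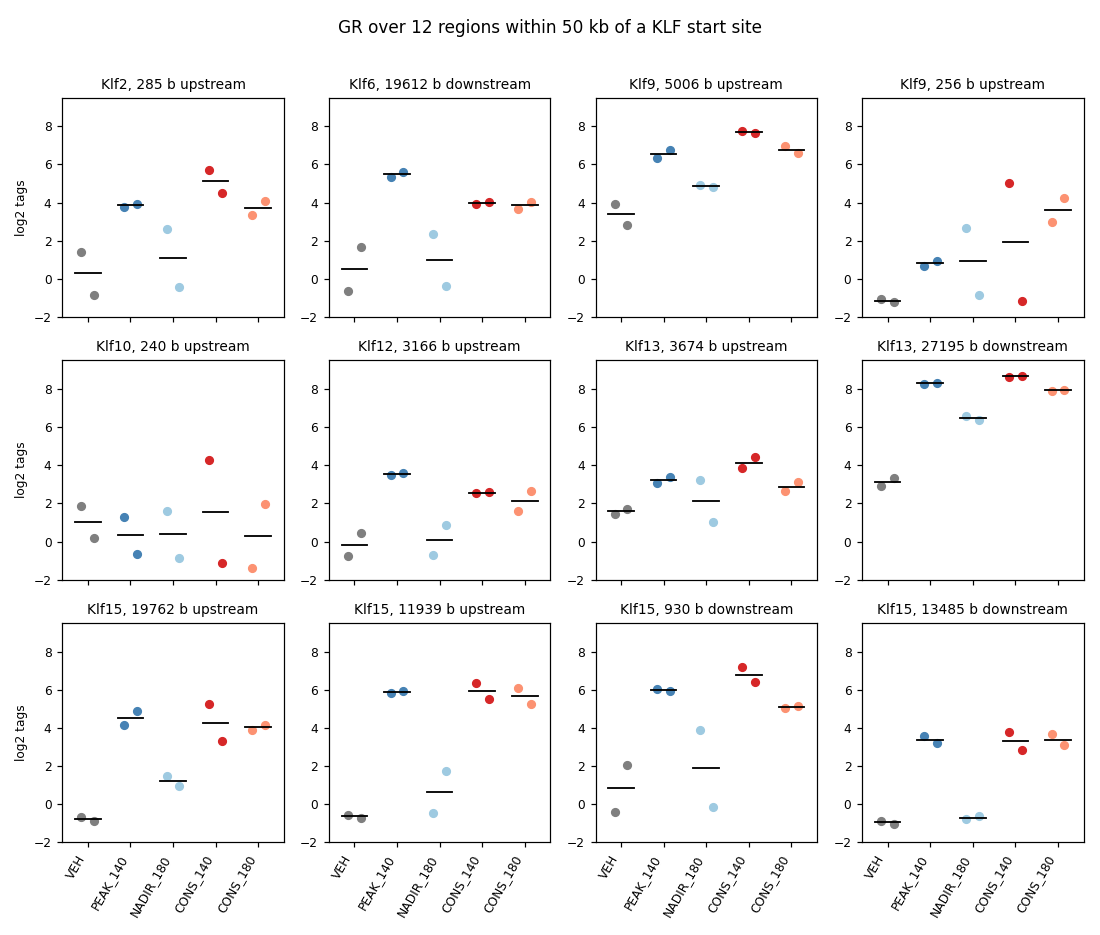
Log2 normalised GR tags at the 12 regions near KLF genes, named by the gene and the distance in bases from its TSS, with dots for the 2 libraries of each group. At Klf15 -11939 the PEAK_140 and CONS libraries lie between 5.27 and 6.37, and the NADIR_180 libraries at -0.47 and 1.73.

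Klf15 had 4 regions. The region 11939 bases upstream (chr4:122352842-122353467, intergenic) had -0.54 and -0.74 in VEH, 5.81 and 5.93 at PEAK_140, -0.47 and 1.73 at NADIR_180, 6.37 and 5.53 at CONS_140 and 6.07 and 5.27 at CONS_180. The nadir libraries stood apart from all other CORT libraries. Against VEH it rose by 6.51 at PEAK_140, 6.59 at CONS_140 and 6.31 at CONS_180 (SE 0.75, limma adjusted p = 0.000121, 0.000146 and 0.000222), and the NADIR_180 difference of 1.27 was not called (adjusted p = 0.43). The PEAK_140 change was above that of 95.1% of all regions.

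The region 930 bases inside Klf15 (chr4:122365699-122366347, intron 1 of 3) had 6.02 and 5.95 at PEAK_140, 3.89 and -0.14 at NADIR_180, 7.18 and 6.41 at CONS_140, 5.05 and 5.13 at CONS_180 and -0.39 and 2.05 in VEH. Here the 2 nadir libraries disagreed by more than the other pairs. It rose by 5.16, 5.97 and 4.26 at PEAK_140, CONS_140 and CONS_180 (SE 1.21), the last of which was lost without VEH replicate 1 (3.04) or either CONS_180 library. The region at -19762 (chr4:122345019-122345644, intergenic, nearer to the start of Cfap100) rose by 5.28, 5.04 and 4.81 (SE 0.74), and that at +13485 (chr4:122378265-122378890, at the end of the gene) by 4.33, 4.25 and 4.33 (SE 0.64). All 4 Klf15 regions were called at PEAK_140 (80.5% of all regions), CONS_140 (65.1%) and CONS_180 (68.2%). At NADIR_180, 0 were called (7.79%), and limma gave 1 at an unadjusted p under 0.05.

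Klf13 had the strongest region by tags, 27195 bases downstream of its TSS in an intron of a Klf13 transcript (chr1:124775856-124776481, nearest start AABR07004100.2). It had 2.92 and 3.33 in VEH, 8.28 and 8.31 at PEAK_140, 6.58 and 6.37 at NADIR_180, 8.65 and 8.70 at CONS_140 and 7.92 and 7.97 at CONS_180. Library pairs agreed closely, and the nadir libraries stayed above VEH. It rose by 5.17, 3.36, 5.56 and 4.82 in that order of CORT groups (SE 0.22, limma adjusted p = 4.54e-06, 0.000278, 2.97e-06 and 8.36e-06), and it was the KLF region called, and listed as a peak, at NADIR_180. Its nadir change was above that of 97.3% of all regions. The region 3674 bases upstream (chr1:124806773-124807300, intergenic) was weaker, with 3.84 and 4.43 at CONS_140 against 1.47 and 1.70 in VEH, and was called at CONS_140 (2.55 ± 0.76, adjusted p = 0.016) and not at the other times. This call was lost without CONS_140 replicate 2 or either VEH library (2.26 to 2.67).

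Klf9 had a strong region 5006 bases upstream (chr1:240903165-240903790, intergenic) with 3.94 and 2.83 in VEH, 6.36 and 6.78 at PEAK_140, 4.95 and 4.80 at NADIR_180, 7.73 and 7.63 at CONS_140 and 6.97 and 6.59 at CONS_180. All CORT libraries lay above VEH, the nadir ones least. It rose by 3.18 at PEAK_140, 4.30 at CONS_140 and 3.39 at CONS_180 (SE 0.40, limma adjusted p = 0.000168, 5.55e-05 and 0.000199), and 1.49 at NADIR_180 missed the threshold (adjusted p = 0.055). The region over the Klf9 promoter (chr1:240907915-240908540) was uneven between libraries, with 5.02 and -1.17 at CONS_140 and 2.98 and 4.26 at CONS_180, and was called at CONS_180 (4.76 ± 1.83, adjusted p = 0.0439), a call lost without either library of CONS_180, VEH or PEAK_140 (4.12 to 5.40).

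The members with 1 region each differed. The Klf2 promoter region (chr16:19225009-19225634) had 3.78 and 3.94 at PEAK_140, 5.73 and 4.51 at CONS_140 and 1.41 and -0.82 in VEH, and rose by 3.57, 4.82 and 3.45 at PEAK_140, CONS_140 and CONS_180 (SE 1.09, limma adjusted p = 0.0144, 0.0043 and 0.0208). Without VEH replicate 2 the first and last of these were 2.46 and 2.33 and missed the threshold (adjusted p = 0.105 and 0.14), as they did without either library of their own CORT group. The Klf6 region (chr17:67925113-67925738, intron 5 of 11) lies 19612 bases downstream of the Klf6 start whose pSer2 Pol2 region was listed at 0, and upstream of the other start. It had 5.37 and 5.63 at PEAK_140, 3.90 and 4.05 at CONS_140 and -0.61 and 1.66 in VEH, and rose by 4.98, 3.45 and 3.33 (SE 0.99). Without VEH replicate 1 the CONS rises were 2.32 and 2.20 and missed the threshold (limma adjusted p = 0.0936 and 0.104), and likewise without CONS_140 replicate 1 or either CONS_180 library. Both regions had GR tags at genes whose transcripts were not called. The Klf12 region (chr15:84679093-84679488, intron 1 of 7, 3166 bases before the downstream start) had 3.47 and 3.61 at PEAK_140, 2.53 and 2.60 at CONS_140 and -0.74 and 0.44 in VEH, and rose by 3.69, 2.72 and 2.29 (SE 0.79), of which the CONS calls were lost without VEH replicate 1 (2.13 and 1.70) and the last also without CONS_180 replicate 2 (1.76). The Klf10 promoter region (chr7:77162124-77162651) had 4.28 and -1.14 at CONS_140 and 1.85 and 0.19 in VEH, and was not called at any time (SE 1.85).

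**Figure D5:**
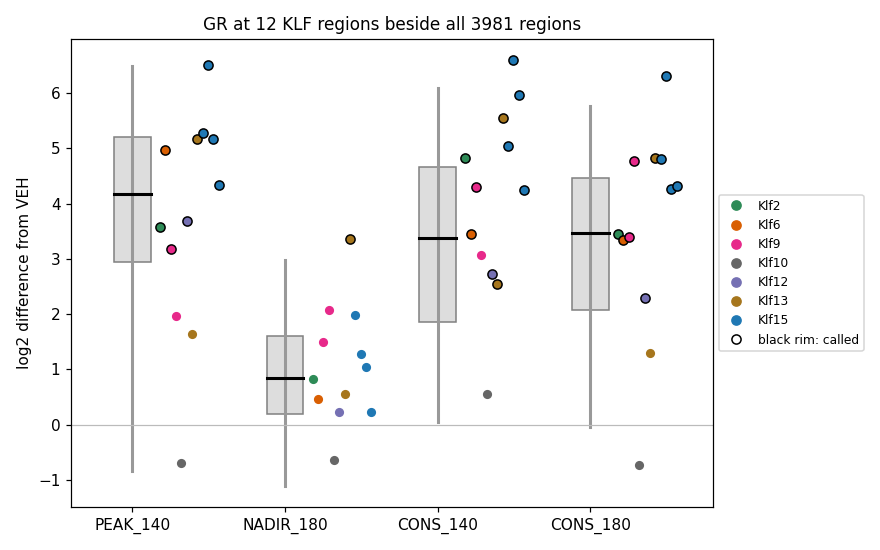
Log2 change of GR tags against VEH at 12 KLF regions (points, black rim where called) beside all 3981 regions, whose box spans 25% to 75% and whose whiskers span 5% to 95%. Klf15 -11939 is the highest KLF region at PEAK_140 with 6.51, and Klf13 +27195 is the highest at NADIR_180 with 3.36, above the 95% whisker at 2.98.

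GR was also higher than in VEH at most regions of the series at PEAK_140 and under CONS, and these regions were defined by the same peak lists. Limma called 9 of 12 KLF regions at PEAK_140 (80.5% of all regions) and 1 at NADIR_180 (7.79%). Under CONS it called 10 at 140 min (65.1%) and 10 at 180 min (68.2%). For the KLF regions the median changes were 4.01, 0.93, 4.27 and 3.85 in this order, and for all regions 4.17, 0.84, 3.38 and 3.46. Relative to the median of each library most KLF regions no longer differed from VEH, with 2, 0, 0 and 1 called, and those 2 at PEAK_140 were lower (Klf10 by -5.30 and Klf13 -3674 by -2.98).

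Between the times of the pulse, 9 of 12 KLF regions were called higher at PEAK_140 than at NADIR_180 (69.3% of all regions), by 5.24 ± 0.75 at Klf15 -11939 (limma adjusted p = 0.000742), 1.82 ± 0.22 at Klf13 +27195 (adjusted p = 0.00041) and 1.69 ± 0.40 at Klf9 -5006 (adjusted p = 0.00586). At 180 min, 6 were called higher in CONS_180 than at NADIR_180 (49.6%), by 5.04 ± 0.75, 1.47 ± 0.22 and 1.90 ± 0.40 at the same regions. Of the calls between the pulse times, that of Klf2 (2.75) was lost without either library of PEAK_140, CONS_140 or CONS_180 or without NADIR_180 replicate 2 (1.23), and that of Klf15 +930 (4.12) without either PEAK_140 library or NADIR_180 replicate 2 (2.10). At 180 min, the call of Klf6 (2.87) was lost without any single library other than those of VEH and NADIR_180 replicate 1, and that of Klf15 -19762 (2.82) without either CONS_180 library or NADIR_180 replicate 2 (2.56 to 2.94). Limma called 0 between PEAK_140 and CONS_140 (1 unadjusted, 0.0502% of all regions called) and 0 between CONS_140 and CONS_180 (2 unadjusted, 0%), and no other tool was run. The change from 140 to 180 min differed between PULS and CONS at 5 KLF regions (44% of all regions), 3 of them at Klf15. Since the regions entered mostly through the PEAK_140 and CONS lists, p-values of the contrasts with NADIR_180 and of the time effects are descriptive. Centred libraries turned the sign of the PEAK_140 to NADIR_180 difference at Klf13 +27195 (-1.62) and Klf9 -5006 (-1.74), but not at Klf15 -11939 (1.80), with 0 KLF regions called.

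By gene, the calls of the 3 assays stood as follows. Klf15 and Klf9 had called GR regions, called pSer2 Pol2 gain at CONS_140 and called transcript gain with CONS. Klf13 had called GR regions and transcript gain, without a called pSer2 Pol2 difference. Klf12 had a called GR region near its downstream start, called pSer2 Pol2 loss at its upstream region at PEAK_140 and transcript loss. These calls do not concern the same start or time. The downstream pSer2 Pol2 region was not called at PEAK_140, and the upstream one was not called at NADIR_180, the time of the RNA. The share of Klf12 reads from overlapping transcripts was not tested. Klf2 and Klf6 had called GR regions without a call against VEH in the other assays. Klf10 had 0 calls against VEH in any assay. Klf3, Klf4 and Klf11 had 0 in RNA and pSer2 Pol2, and had no GR region within 50 kb to test. Klf2, Klf4, Klf10 and Klf11 had few RNA reads (87, 68, 149 and 153). Several of the calls named here were lost when a single library was left out.

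The transcripts most like Klf9 and Klf12 over the 12 libraries were listed as a description. By Pearson correlation of log2 CPM, those nearest to Klf9 were Rell1 (0.968), AABR07049292.1 (0.967), Ippk (0.967), Lrp6 (0.964) and Ablim3 (0.958). Those nearest to Klf12 were Ttc39b (0.965), Psd3 (0.962), Ror1 (0.961), Akap6 (0.954) and Cobl (0.949). The libraries share the treatment groups, and the values carry no test.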

How the data were processed

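GR and pSer2 Pol2 ChIP-Seq (10 libraries each) and RNA-Seq (12 libraries) of rat liver were analysed. The authors deposited RNA counts per Ensembl gene, made with featureCounts 1.6.2 on rn6, and a log2 tag value for each ChIP region in each library. Per the methods, ChIP reads were trimmed (Trimmomatic 0.36) and mapped to rn6 by bowtie2, duplicates were removed, and HOMER 4.9.1 called peaks per group over 2 libraries, counted tags and subtracted input. The deposited log2 values are called tag counts in their header, but go below 0 and are drawn to the region mean at low tags, so no count model was used on them. The authors' own fold changes and p-values, in separate files, were not used.

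Genes with more than 10 reads over 12 libraries were tested with edgeR 4.0.16 (quasi-likelihood, TMM), with DESeq2 1.42.0 as an alternative, and regions with limma 3.58.1 with a variance trend, in R 4.3.3. Scripts were tested on simulated data. GR regions were assigned to a gene within 50 kb of a TSS. All KLF members were named, beside fixed lists of KLF15-linked, other Klf and Sp and marker genes, and the 5 transcripts closest to the member with the largest called RNA change per comparison. Results of 1 further gene list are not reported here. The members and lists were chosen with earlier results of these data known. Comparisons with VEH share the VEH libraries. ChIP libraries are pools and nothing states how RNA libraries relate to animals, so p-values measure only the spread between libraries.

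Replicate numbers come from the labels. Same-numbered pSer2 Pol2 libraries deviated together (r from 0.155 to 0.553 over 12 pairs), those of RNA (-0.0488 to 0.081) and GR (-0.0265 to 0.0718) did not. With 2 libraries a group, their deviations from the group mean mirror each other. The 12 ChIP pairs therefore repeat each value for both replicate numbers and are not independent. VEH ChIP libraries carry no numbers and were left out of the block. Alternatives left out each library, changed the filter, scaling, variance model, libraries fitted, distance limit and pairing. Using 1 row per genome position for pSer2 Pol2 was added after seeing the data.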

Additional observations from a re-analysis of the deposited data

Results flagged for a closer look

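The change from 140 to 180 min differed between PULS and CONS, by a limma interaction test (n = 2 libraries a group), at some KLF regions. These were 5 of 12 GR regions (44% of all regions called) and 1 of 12 pSer2 Pol2 regions (0.0574%). The GR count was thus near the share of all regions. Its p-values are descriptive, as the peak lists of these libraries defined the regions. For GR, the excess of the PULS fall over the CONS fall was 4.96 ± 1.06 at Klf15 -11939 (limma adjusted p = 0.0106) and 4.18 ± 0.91 at Klf15 +13485 (adjusted p = 0.011), and each call was lost in 1 alternative, that with libraries centred on their medians. It was 3.07 ± 1.04 at Klf15 -19762 (adjusted p = 0.0417), 4.40 ± 1.40 at Klf6 (adjusted p = 0.0348) and 1.08 ± 0.31 at Klf13 +27195 (adjusted p = 0.0258), and these calls were kept in 5, 8 and 8 of 16 alternatives. For pSer2 Pol2, Klf12 region 2 went the other way, with -4.56 ± 0.55 (limma adjusted p = 0.0152), since PEAK_140 lay below NADIR_180, and the call was kept in 7 of 17 alternatives.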

How the results depend on the processing

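Calls of single KLF features changed least often in RNA, where most were uncalled under every setting. For single KLF genes, 877 of the RNA values under alternatives kept direction and call, 12 gained a call and 1 lost it, the cause of which was not tested. All gained calls were of Klf9, with PULS or between patterns, and the lost one was of Klf12 with CONS. The comparisons between patterns were less steady. Called KLF genes for the difference of responses were 1 with DESeq2 and 1 with no filter on low counts, and for constant against pulsatile CORT 2 with DESeq2, 2 with no filter and 2 with only the compared libraries. Over all genes, DESeq2 and no filter called 215 and 204 for the difference of responses, 209 and 273 between CORT patterns and 22 and 30 between VEH patterns. The replicate block of RNA, whose numbers did not pair the libraries, called 9 genes for the difference of responses and left the KLF calls as they were.

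Centring GR libraries on their medians removes the median change by construction. KLF regions called were then 2 at PEAK_140, 0 at NADIR_180, 0 at CONS_140, 1 at CONS_180, 0 between PEAK_140 and NADIR_180, 0 between CONS_180 and NADIR_180 and 0 for the time effects (all regions 534, 0, 477, 327, 216, 0 and 40). Signs turned at Klf12 (CONS_140 -1.39, CONS_180 -1.77, PEAK_140 -0.92), Klf13 -3674 (-1.56, -2.76, -2.98), Klf15 +13485 (PEAK_140 -0.29), Klf2 (CONS_180 -0.61, PEAK_140 -1.05, PEAK_140 to NADIR_180 -0.69), Klf6 (CONS_140 -0.66, CONS_180 -0.73, CONS_180 to NADIR_180 -0.012) and Klf9 -5006 (CONS_180 -0.67, PEAK_140 -1.43, CONS_180 to NADIR_180 -0.98, PEAK_140 to NADIR_180 -1.74). They also turned for CONS_180 to NADIR_180, PEAK_140 to NADIR_180 and the time effects at Klf13 +27195 (-1.42, -1.62, -2.30) and Klf15 -19762 (-0.058, -0.14, -0.32). At NADIR_180, only the compared libraries gave 0 and regions above the median level gave 2. A limit of 10 kb kept 7 GR regions and 100 kb gave 17. Among regions above the median level, 1791, 1720 and 1723 were called at PEAK_140, CONS_140 and CONS_180, since fewer were tested. With the GR replicate block, whose numbers did not pair, 8 KLF regions were called between CONS_180 and NADIR_180.

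For pSer2 Pol2, centring called 4 KLF regions at PEAK_140, 2 at CONS_180 and 1 between CONS_180 and NADIR_180. Fitting only the compared libraries called 0 at PEAK_140, 0 at CONS_140, 0 between PEAK_140 and NADIR_180, 0 between PEAK_140 and CONS_140 and 0 for the time effects. Regions above the median level gave 3 at PEAK_140 and 1 at CONS_180, no variance trend gave 1 at CONS_140 and 0 between PEAK_140 and CONS_140, 1 row per position gave 0 there, and the replicate block gave 2 there and changed no other KLF call. Showing a gene by the region with the largest difference gave 1 called gene at PEAK_140 and 1 against NADIR_180, in place of 0. Over all regions, calls at PEAK_140, NADIR_180, CONS_140, CONS_180 and PEAK_140 to NADIR_180 were 783, 15, 640, 282 and 476 centred, 589, 29, 522, 218 and 346 above the median level, and 222, 1, 173, 49 and 114 with 1 row per position. Fitting only the compared libraries gave 0 at PEAK_140 and CONS_140 and 13 at CONS_180. Between PEAK_140 and CONS_140 centring gave 257, regions above the median level 260 and no variance trend 44. For the time effects these gave 272, 203 and 55, and the replicate block 41.

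With 1 library left out, KLF calls ranged, for RNA, from 3 to 4 with PULS, 3 to 4 with CONS, 0 to 1 for their difference and 1 to 2 between CORT patterns. For GR they ranged from 8 to 10 at PEAK_140, 1 to 2 at NADIR_180, 7 to 10 at CONS_140, 5 to 11 at CONS_180, 7 to 10 between PEAK_140 and NADIR_180, 4 to 9 between CONS_180 and NADIR_180 and 2 to 5 for the time effects. For pSer2 Pol2 they ranged from 0 to 1 at PEAK_140, 0 to 2 at CONS_140, 0 to 1 between PEAK_140 and NADIR_180, 0 to 2 between PEAK_140 and CONS_140, 0 to 1 between CONS_140 and CONS_180 and 0 to 1 for the time effects. Without CONS_140 replicate 2, all regions called rose to 5669 at CONS_140 and 8579 between PEAK_140 and CONS_140. With 2 libraries a group, regions with few tags are limited by the spread between libraries.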
